A study of Mus musculus with 18 samples.

Results

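The 6 RNA-seq libraries described here came from the colon of mice treated with azoxymethane (AOM), a carcinogen, and dextran sulfate sodium (DSS), which damages the lining of the large bowel. They were chosen by the treatment and genotype labels, and 3 were from Cldn2KO mice and 3 from WT mice, of 18 libraries in the series. Each mouse received 1 dose of AOM at 10 mg/kg body weight and then 3 cycles of DSS at 2.5% (w/v), and the colon was collected as a model of colitis-associated cancer (CAC). The Cldn2KO mice lack claudin-2 in every tissue, and the study states a C57BL/6 background, littermate WT mice and matching for age and sex. The ages were not given in the sources used here. The other 12 libraries, 3 per genotype from untreated colon and 3 per genotype from colon after recovery from DSS colitis, entered the fit and serve below as a comparison. The samples were whole pieces of colon with epithelium, muscle, nerve, stroma and immune cells, so that fewer cells of a type and less RNA per cell cannot be told apart. Nothing in the labels says how many tumors a piece held. The comparison asks how the transcriptome of the CAC-challenged colon differs when claudin-2 is missing.

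Claudin-2 is a tight junction protein that forms paracellular channels for small cations and water. In the gut it is most abundant in leaky and immature epithelium, such as the crypt base, and it is known to increase in inflammatory bowel disease. AOM damages DNA in crypt cells, and repeated DSS injury and repair promote the growth of tumors, which in this model usually carry an activated Wnt/β-catenin pathway. Tumor tissue in such colons is therefore commonly recognised by Wnt targets such as Notum, Nkd1, Wif1 and Axin2, and inflamed tissue by neutrophil genes such as S100a8.

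The depth of the libraries was 17891353 to 27390344 counted reads. Values are CPM, the reads of a gene scaled to a common library size with TMM factors. Fold changes are Cldn2KO over WT on the log2 scale, with a standard error (SE) derived from the edgeR test. Genes were called at an adjusted p under 0.05. In what follows, groups that do not overlap means that all 3 Cldn2KO libraries lay on one side of all 3 WT libraries. The labels do not say which library came from which animal. The edgeR fit used every library of the series. Its p-values and SE therefore reflect the spread within untreated and recovery groups too, and not within the AOM/DSS groups alone.

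The targeted gene was examined first. Cldn2 (chrX:139800828-139811386 in GRCm38) stood at 205, 126 and 135 CPM in the WT libraries and at 0.523, 0.162 and 0.141 CPM in the Cldn2KO libraries. Every Cldn2KO library was therefore far below every WT library, and the labels of genotype held in all 6. The log2 fold change was -9.21 ± 0.55, with an adjusted p of 4.76e-07 (edgeR) and a range of 1.17e-91 to 0.00445 over 28 alternative analyses, all of which called it.

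**Figure D1:**
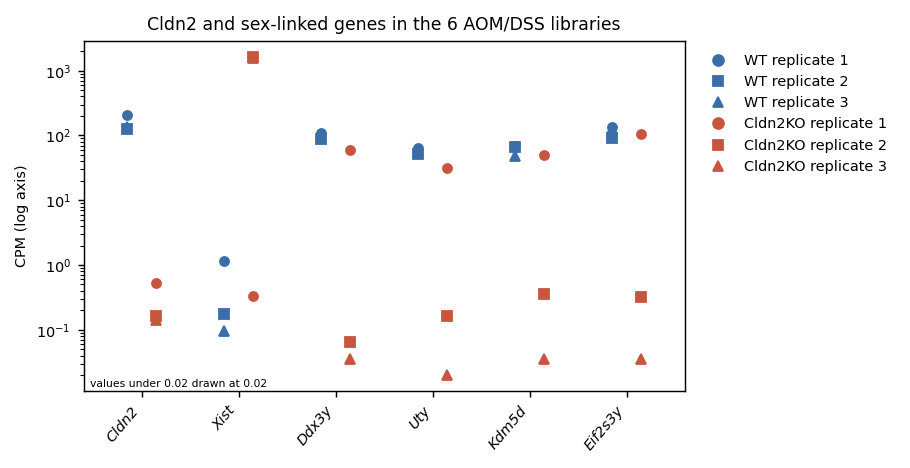
CPM (log axis) of Cldn2, of Xist and of 4 Y-linked genes in each AOM/DSS library, with WT in blue, Cldn2KO in red and 1 symbol per replicate. Cldn2 separates the genotypes, and Xist and the Y-linked genes separate Cldn2KO replicates 2 and 3 from the other 4 libraries.

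The libraries differed in sex. Xist, the RNA that silences an X chromosome in females, stood at 0.333, 1649 and 1594 CPM in the Cldn2KO libraries and at 1.16, 0.175 and 0.0946 CPM in the WT libraries. Ddx3y, a Y-linked gene, stood at 60.5, 0.0649 and 0.0352 CPM in Cldn2KO and at 107, 87.5 and 104 CPM in WT. Thus 2 of 3 Cldn2KO libraries carried the female pattern and 0 of 3 WT libraries did. Xist differed with genotype here only through these 2 libraries, and for several lists the median is also given below with the 4 libraries without Xist (1 Cldn2KO and 3 WT).

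The libraries also differed in their levels of Wnt target, inflammatory and muscle genes. WT replicate 3 lay far from the other 5 on the first principal component, which held 53.3% of the variance. It had the highest value of the 6 libraries for 16 of 17 neutrophil and chemokine genes tested, for 23 of 28 Wnt target and stem cell genes and for 30 of 38 DNA replication genes, against 26.6% of all genes tested. It had the lowest value for 16 of 17 smooth muscle genes and 11 of 14 goblet cell genes, against 29% of all genes. Cldn2KO replicate 2 had the highest value for all 17 smooth muscle genes and for 15 of 16 genes of enteric neurons and glia, against 19.9% of all genes. WT replicate 1 and Cldn2KO replicate 2 were the 2 lowest libraries for 19 of the 28 Wnt genes, against 10.9% of all genes tested.

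Of 16937 genes tested between Cldn2KO and WT in AOM/DSS, only Cldn2 was called by edgeR (0.0059% of genes). Before adjustment, p was under 0.05 for 563 genes with higher values in Cldn2KO (3.32%) and 386 with lower values (2.28%). The groups did not overlap for 833 genes higher (4.92%) and 1080 genes lower (6.38%) in Cldn2KO. Leaving out a library can only add to the separated genes, and without 1 of the 6 libraries they made up 8.08% to 11.99% of all genes for higher and 9.09% to 13.1% for lower. Every gene other than Cldn2 had an adjusted p of at least 0.862 by edgeR, so the unadjusted p-values printed below only order the genes. DESeq2 on all libraries called 4 genes (0.0237%), among them Cldn2, Xist and Cyp2c66. Cyp2c66 was close to 0 in all 6 AOM/DSS libraries, with at most 0.0325 CPM. limma-voom called Cldn2 alone. DESeq2 on the 6 libraries by themselves called 15 genes (0.1%), of which Xist was higher and 14 were lower in Cldn2KO (0.0937%). Beside Cldn2 these were Ptprc, Gp2, Coro1a, Il22ra2, Cd52, Ccl20, Cd53, Iglc3, H2-Eb1, Serpina3g, Gm1966, Ifi209 and Btla.

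**Figure D2:**
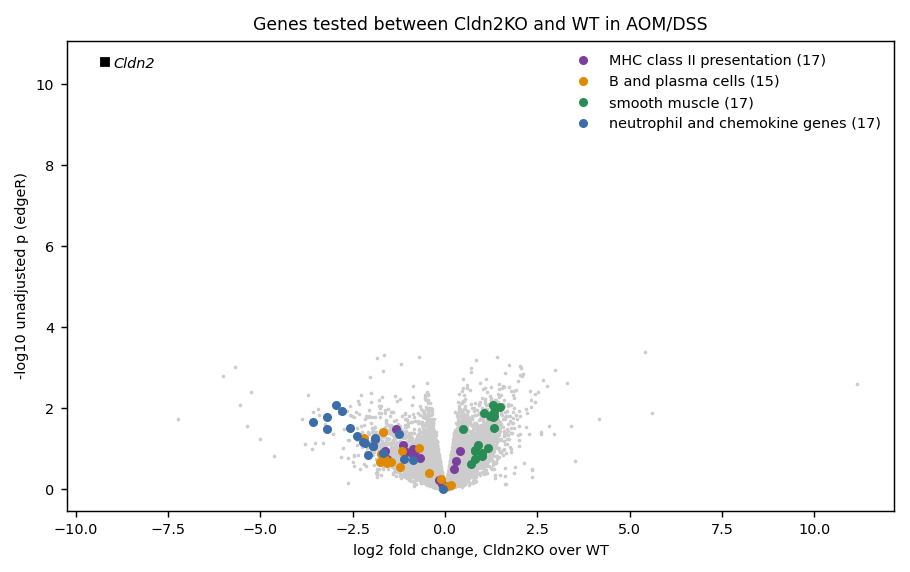
Log2 fold change, Cldn2KO over WT, against -log10 of the unadjusted edgeR p for each of the 16937 genes tested (gray), with members of 4 gene lists in color. Cldn2 lies alone at the upper left, neutrophil, B cell and MHC class II genes lie mostly left of 0, and all smooth muscle genes lie right of 0.

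Genes with a mean of at least 1 CPM over the 6 libraries and groups that did not overlap were ranked by unadjusted p. Among those lower in Cldn2KO, the first after Cldn2 was Nfkbiz, which encodes the nuclear NF-κB regulator IκBζ. It stood at 116, 120.2 and 145 CPM in WT and at 79.3, 64.2 and 91.2 CPM in Cldn2KO. All 3 Cldn2KO libraries were below all 3 WT libraries, with a log2 fold change of -0.70 ± 0.16 (unadjusted p 0.000541). Tnfsf10, the death ligand TRAIL, stood at 34, 30.6 and 70.1 CPM in WT and at 16.7, 21.7 and 21.1 CPM in Cldn2KO (-1.18 ± 0.29), and WT replicate 3 was the highest of the 6. Tifa, an adaptor of NF-κB activation by bacterial sugars, stood at 202, 67.8 and 233 CPM in WT and at 41.8, 56.5 and 60.2 CPM in Cldn2KO (-1.66 ± 0.42), and the WT value closest to the Cldn2KO range was that of replicate 2. Ccl20, the chemokine that draws CCR6-bearing lymphocytes and dendritic cells to the epithelium over follicles, stood at 29.9, 46.7 and 18.2 CPM in WT and at 9.27, 3.99 and 9.79 CPM in Cldn2KO (-2.04 ± 0.54). Gp2, a receptor for bacteria on M cells of that epithelium, stood at 16.3, 0.875 and 3.78 CPM in WT and at 0.143, 0 and 0.176 CPM in Cldn2KO, where the libraries held 3, 0 and 5 reads. Groups did not overlap for any of these genes because the ranking took only such genes. The other genes of the first 10 beside Cldn2 were Btf3l4, Slc25a53, Cdkal1 and H2-M2, with log2 fold changes of -0.48, -0.88, -0.48 and -2.01.

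Among those higher in Cldn2KO, the first was Dact3, an antagonist of Wnt signaling, at 2.71, 4.25 and 2.18 CPM in WT and 5.37, 13.3 and 5.57 CPM in Cldn2KO (1.41 ± 0.33, unadjusted p 0.000558). Per2, a negative limb gene of the circadian clock, stood at 25.1, 30.0 and 19.8 CPM in WT and at 31.5, 55.8 and 47 CPM in Cldn2KO (0.84 ± 0.20). Its Cldn2KO libraries were above every WT library, although replicate 1 was close to the highest WT value. Per2 was also higher in Cldn2KO than in WT in untreated colon, where it was called (log2 fold change 1.45 ± 0.20, edgeR adjusted p 0.00274). Hand2, a transcription factor of enteric neurons and mesenchyme, stood at 0.823, 1.58 and 0.662 CPM in WT and at 2.76, 5.42 and 2.01 CPM in Cldn2KO (1.73 ± 0.42). Myh14, a nonmuscle myosin heavy chain of epithelial junctions and brush borders, stood at 268, 349.9 and 187 CPM in WT and at 450.1, 436 and 438 CPM in Cldn2KO (0.72 ± 0.18). The 3 Cldn2KO values of Myh14 lay within a narrow range, and WT replicate 3 was the lowest of the 6. Wdtc1 stood at 29.1, 38.7 and 28.6 CPM in WT and at 51.1, 54.5 and 51.1 CPM in Cldn2KO (0.70 ± 0.17). The remaining genes of the first 10 were Inka2, Mrgprf, Btbd2, Plekhg6 and Ttll1, with log2 fold changes of 1.63, 2.11, 0.48, 1.10 and 0.95. Dact3, Hand2, Inka2 and Mrgprf were each highest in Cldn2KO replicate 2, the library with the highest smooth muscle and neuronal genes, and the part of that tissue in these differences was not tested.

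Most MHC class II genes, which present peptides from outside the cell to CD4 T cells, had lower values in Cldn2KO, although edgeR called none. Of 17 genes of this pathway tested, 10 had Cldn2KO libraries all below the WT libraries, against 6.38% of all genes tested, and 0 were called by edgeR. The median log2 fold change of the list was -0.85, against -0.00423 for all genes tested. Ciita, the master activator of the class II genes, stood at 5.08, 7.35 and 5.34 CPM in WT and at 2, 2.92 and 2.18 CPM in Cldn2KO (-1.32 ± 0.57, 95% interval -2.52 to -0.12, unadjusted p 0.0335). H2-Aa, the α chain of the I-A molecule, stood at 213, 101 and 129 CPM in WT and at 78, 70.5 and 54.7 CPM in Cldn2KO (-1.12 ± 0.60, 95% interval -2.40 to 0.15). H2-Ab1, its β chain, stood at 50.1, 35 and 50.6 CPM in WT and at 27.5, 27.1 and 20.5 CPM in Cldn2KO (-0.85 ± 0.55). All 3 Cldn2KO libraries were below all 3 WT libraries for Ciita and both I-A chains. H2-Eb1, the β chain of the I-E molecule, stood at 35.1, 34.3 and 35.5 CPM in WT and at 22.6, 19 and 16 CPM in Cldn2KO (-0.87 ± 0.50, unadjusted p 0.104 by edgeR). The 3 WT values of H2-Eb1 were almost equal, and DESeq2 on the 6 libraries alone called it (adjusted p 0.0229, with a range of 0.0229 to 1 over 28 alternatives). H2-Ob, a chain of the peptide-loading inhibitor found mainly in B cells, stood at 10.7, 10.4 and 10.8 CPM in WT and at 4.56, 0.584 and 3.1 CPM in Cldn2KO. H2-DMb1, part of the peptide-loading catalyst, overlapped between the groups at 15.2, 5.69 and 11.4 CPM in WT and 7.27, 8.08 and 4.76 CPM in Cldn2KO. The other members whose groups overlapped were Rfx5, Ctss and Ctsl at -0.16, -0.09 and -0.03 and, above 0, Ifi30, Rfxap and Rfxank at 0.42, 0.29 and 0.23 on the log2 scale. Ctss, Ctsl and Ifi30 encode lysosomal enzymes of antigen processing, and the others subunits of the RFX complex that binds class II promoters. When each of the 6 libraries was left out in turn, the median ranged from -1.0 to -0.73. With the 4 libraries without Xist the median was -0.61, and with sex as a covariate it was -1.09.

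The promoters of class II genes share short elements that bind the complex recruited by CIITA, among them the Y box, which holds the letters GATTGG on one strand or CCAATC on the other. The 150 bases before the RefSeq start of 2 of the class II genes above are shown because these genes had lower values beside Ciita, in GRCm38.p6 and 5′ to 3′ on the strand of the gene, with those letters in capitals.
H2-Aa, minus strand, chr17:34287824-34287973: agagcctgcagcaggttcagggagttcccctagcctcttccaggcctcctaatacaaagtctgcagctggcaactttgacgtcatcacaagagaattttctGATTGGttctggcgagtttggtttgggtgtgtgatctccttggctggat
H2-Eb1, plus strand, chr17:34305717-34305866: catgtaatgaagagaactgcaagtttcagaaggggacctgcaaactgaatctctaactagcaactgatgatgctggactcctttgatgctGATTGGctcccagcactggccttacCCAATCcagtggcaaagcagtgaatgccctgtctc
The element was found on either strand in 3595 of 32851 RefSeq promoters cut to the same length (10.9%), and in 8 of the 14 class II list genes that matched the table by symbol. A match of letters is a description and not a site of binding.

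Genes carried by most leukocytes and genes of B cells and lymphoid follicles also had lower values in Cldn2KO. Of 15 B and plasma cell genes, 9 had all Cldn2KO libraries below all WT libraries (background 6.38%), 0 were called, and the median log2 fold change was -1.46. Ms4a1, which encodes CD20 of mature B cells, stood at 32.8, 15.2 and 17.2 CPM in WT and at 5.71, 1.2 and 7.43 CPM in Cldn2KO (-2.19 ± 1.05). Pou2af1, a B cell coactivator, stood at 4.74, 6.65 and 4.68 CPM in WT and at 2.61, 0.941 and 1.55 CPM in Cldn2KO (-1.66 ± 0.74, unadjusted p 0.0384). Cldn2KO replicate 2 was the lowest library for 12 of the 15 genes. Mzb1 of plasma cells was at 5.57, 6.35 and 7.38 CPM in WT and at 2.57, 2.34 and 3.73 CPM in Cldn2KO (-1.16 ± 0.70), whereas Xbp1, which secretory epithelium also uses, overlapped at 311, 233 and 325 and 283, 282 and 244 CPM. With the 4 libraries without Xist the median of the B and plasma cell list was -0.70, and it ranged from -2.11 to -1.02 when each library was left out.

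A further pair of lists was put together after the values had been seen, so their counts are no independent evidence. In the first, of 16 genes shared by leukocytes, 11 were lower in all 3 Cldn2KO libraries (background 6.38%) and the median log2 fold change was -0.88. Ptprc, the leukocyte phosphatase CD45, stood at 31.6, 29.3 and 36.4 CPM in WT and at 14.8, 11.8 and 15 CPM in Cldn2KO (-1.22 ± 0.53, 95% interval -2.35 to -0.09). By DESeq2 on the 6 libraries alone its adjusted p was 6.94e-06, but over all 28 alternatives it ranged from 6.94e-06 to 1, and only that one called it. Cd52, a small surface glycoprotein of lymphocytes, stood at 33.4, 19.96 and 31.2 CPM in WT and at 12.9, 7.11 and 9.83 CPM in Cldn2KO (-1.5 ± 0.73). Coro1a, an actin regulator of leukocytes, stood at 29.5, 25.4 and 37.4 CPM in WT and at 14.5, 8.21 and 9.86 CPM in Cldn2KO (-1.5 ± 0.79). Cd53, a leukocyte tetraspanin, stood at 24.5, 14.5 and 25.5 CPM in WT and at 9.7, 8.24 and 8.81 CPM in Cldn2KO (-1.27 ± 0.56). In the second, of 16 genes of lymphoid follicles and M cells, 10 were lower in all 3 Cldn2KO libraries (background 6.38%) and the median was -1.34. Cxcl13, the chemokine that gathers B cells into follicles, stood at 18.5, 12.2 and 16.1 CPM in WT and at 5.71, 1.95 and 6.52 CPM in Cldn2KO. Spib, a transcription factor of M cells and B cells, stood at 6.58, 8.27 and 5.96 CPM in WT and at 3.85, 1.82 and 3.84 CPM in Cldn2KO (-1.13 ± 0.60). Il22ra2, the secreted receptor that neutralises IL-22, stood at 5.23, 2.23 and 4.4 CPM in WT and at 0.761, 0.876 and 0.704 CPM in Cldn2KO (-2.33 ± 0.76). Follicles are patchy in the colon, and whether the pieces held different numbers of them was not tested. In untreated colon Ms4a1 was at 2.79, 24.1 and 21.2 CPM in WT and at 1.23, 1.17 and 28.4 CPM in Cldn2KO, so that its level varied widely among libraries of 1 group there too.

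**Figure D3:**
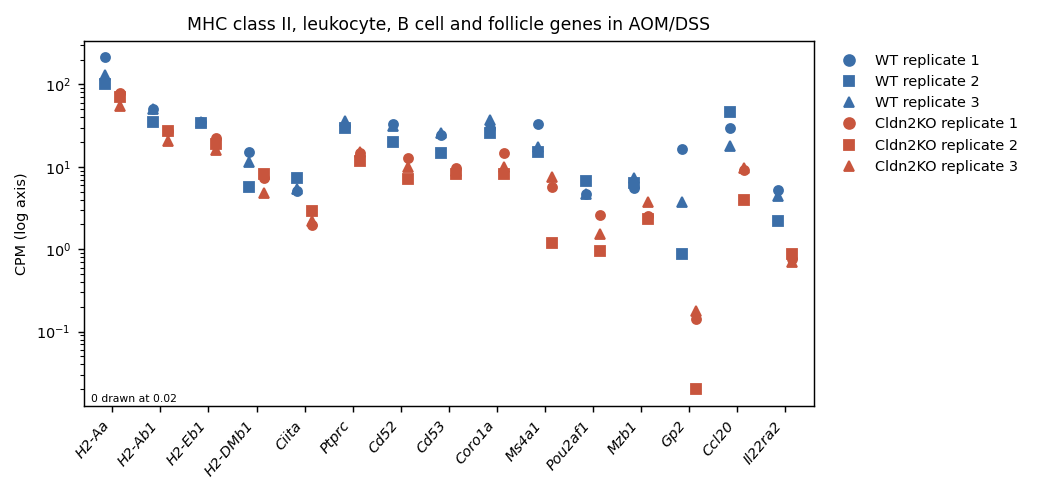
CPM (log axis) of class II, leukocyte, B cell and follicle genes in the 6 AOM/DSS libraries, with WT in blue, Cldn2KO in red and 1 symbol per replicate. All red symbols lie below all blue symbols of the same gene except for H2-DMb1.

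Other immune lists gave weaker separation. Of 18 T and NK cell genes tested, 5 were lower in all 3 Cldn2KO libraries (background 6.38%). Their median was -0.76, and -0.27 without WT replicate 3. Gzma, the cytotoxic protease granzyme A, stood at 1.11, 0.919 and 5.11 CPM in WT and at 0.523, 0.325 and 0.528 CPM in Cldn2KO, and Lck, the T cell kinase, overlapped at 2.42, 2.71 and 6.76 and 3.33, 1.98 and 2.68 CPM. Of 18 macrophage and monocyte genes, 0 were separated in either direction (background 4.92% higher and 6.38% lower), with a median of -0.14. That median was 0.19 without WT replicate 3. It was -0.41 without Cldn2KO replicate 2, where 4 of the genes were separated low, against 9.09% of all genes. The interferon response had a median of -0.51 and 43 of 46 genes below 0, but only 2 separated genes (background 6.38%). Its median was -0.23 without WT replicate 3, -0.27 without WT replicate 1 and -0.80 without WT replicate 2, and it was 0.033 with limma-voom. Without WT replicate 2, 26 of the genes were separated low, against 13.1% of all genes. Ifi47, an interferon-induced GTPase, stood at 61.5, 22.6 and 78.1 CPM in WT and at 23, 20.2 and 20.4 CPM in Cldn2KO (-1.35 ± 0.41), with WT replicate 2 within the Cldn2KO range. B2m, the light chain of MHC class I, stood at 799, 385 and 632 CPM in WT and at 369.8, 463 and 341 CPM in Cldn2KO, again with WT replicate 2 inside the Cldn2KO range. The class I list had a median of -0.17 and 0 separated genes of 24 (background 4.92% higher and 6.38% lower). Without WT replicate 2 its median was -0.27 and 12 were separated low, against 13.1% of all genes.

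The inflammatory lists depended on 1 library. The median over neutrophil and chemokine genes was -2.18 on the log2 scale, 17 of 17 lay below 0, and 0 had separated groups (background 4.92% higher and 6.38% lower). S100a8, an abundant neutrophil protein, stood at 1.31, 4.38 and 174 CPM in WT and at 4.33, 2.08 and 8.77 CPM in Cldn2KO. Only WT replicate 3 was high, and the log2 fold change of -3.57 became 0.83 without it. The median of the list became 0.30 without it. Il1b, an inflammatory cytokine, stood at 2.95, 5.34 and 74.7 CPM in WT and at 6.18, 2.63 and 5.32 CPM in Cldn2KO, with the same library high. Reg3b, an antimicrobial lectin induced by IL-22, stood at 1.74, 0.219 and 605 CPM in WT and at 0.618, 0.519 and 2.89 CPM in Cldn2KO. The TNF and NF-κB list had a median of -0.76, which became 0.01 without WT replicate 3, with 4 of 32 genes separated low (Nfkbiz, Ccl2, Ccl20 and Birc3, background 6.38%) and 0 separated high. Without WT replicate 1, 9 were separated low, against 9.79% of all genes. Socs3, a feedback inhibitor of Stat3 signaling, stood at 78.9, 31.2 and 176 CPM in WT and at 33.2, 17.9 and 28.6 CPM in Cldn2KO (-1.85 ± 0.43, unadjusted p 0.000577). WT replicate 2 lay within the Cldn2KO range of Socs3, and the gene was called only when that library was left out (adjusted p 0.0294, the lowest of 28 alternatives, which reached 1). Tnf itself stood at 3.34, 10.0 and 25 CPM in WT and at 10.2, 2.63 and 6.59 CPM in Cldn2KO, with overlap. Of the IL-6, IL-11, IL-22 and Stat3 list, 2 of 23 genes were separated low (Il22ra2 and Lifr, background 6.38%), and Stat3 stood at 129, 125 and 154 CPM in WT and at 131, 113 and 162 CPM in Cldn2KO.

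Wnt targets did not separate the genotypes and spread widely within each. Notum, a secreted Wnt inhibitor induced in Apc-mutant tissue, stood at 0.145, 24.2 and 98.6 CPM in WT and at 38.9, 0.26 and 42.2 CPM in Cldn2KO (-0.60 ± 1.36, 95% interval -3.49 to 2.30). Each genotype thus held libraries with high Notum and a library, WT replicate 1 or Cldn2KO replicate 2, at about the level of untreated colon, which was at most 0.548 CPM. Nkd1, a feedback inhibitor of Wnt signaling, stood at 2.42, 46.6 and 247 CPM in WT and at 98.5, 9.28 and 82.6 CPM in Cldn2KO (-0.64 ± 0.97). Wif1, another secreted inhibitor, stood at 1.69, 35.1 and 283 CPM in WT and at 96.4, 1.36 and 141 CPM in Cldn2KO (-0.42 ± 1.26). The stem cell receptor Lgr5 stood at 2.71, 20.4 and 74.3 CPM in WT and at 20.6, 3.8 and 33 CPM in Cldn2KO, and Mmp7, a protease of intestinal tumors, at 0.92, 27.6 and 372 CPM in WT and 79.7, 0.844 and 82.8 CPM in Cldn2KO. These genes ordered the libraries alike, with WT replicate 3 highest and WT replicate 1 and Cldn2KO replicate 2 lowest. No gene of the 28 in the list had separated groups, against 4.92% of all genes higher and 6.38% lower, and the median of -0.39 became 0.57 without WT replicate 3. The interval of Notum holds differences of either sign, and smaller ones were not detectable at this spread.

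The fetal-like repair genes and the metalloproteinases depended on WT replicate 3 as well. Plet1, a surface protein of repairing epithelium, stood at 10.7, 16.7 and 150.4 CPM in WT and at 23.6, 8.44 and 37.1 CPM in Cldn2KO, and its log2 fold change of -1.36 became 0.75 without WT replicate 3. The medians of the lists were -0.30 over 20 repair genes and -0.23 over 19 metalloproteinases and inhibitors, and both turned positive without that library (0.40 and 0.39). Neither list had a separated gene with all libraries (background 4.92% higher and 6.38% lower). Of 19 EGF family genes, 0 were separated in either direction (background 4.92% higher and 6.38% lower), and without WT replicate 3 6 were separated high, against 10.3% of all genes. Ereg, a ligand of the EGF receptor, stood at 2.08, 5.47 and 16.5 CPM in WT and at 3.14, 6.78 and 5.21 CPM in Cldn2KO, and Egfr at 47, 54 and 62.6 and 58.3, 43.8 and 74.9 CPM.

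**Figure D4:**
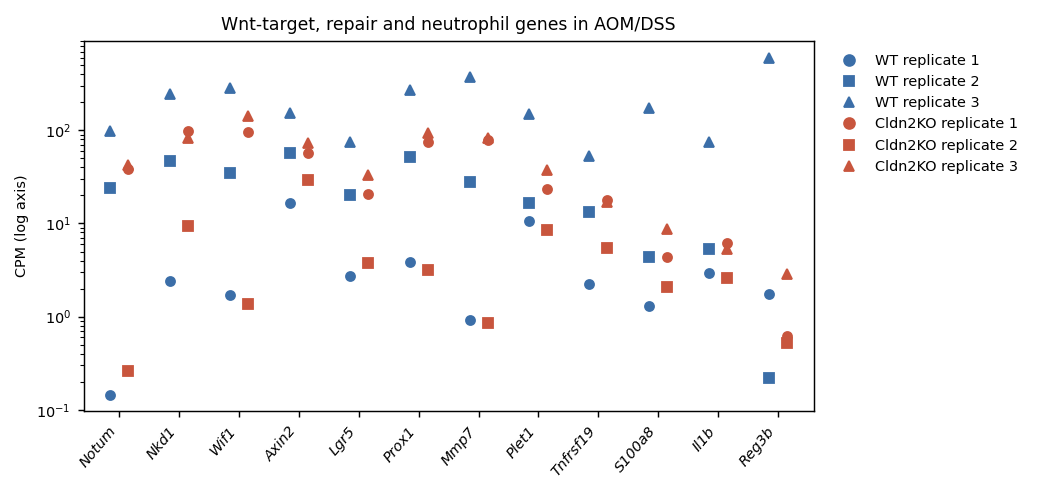
CPM (log axis) of Wnt targets, repair genes and neutrophil-associated genes in the 6 AOM/DSS libraries, with WT in blue, Cldn2KO in red and 1 symbol per replicate. For Notum the libraries spread from 0.145 to 98.6 CPM within WT, and red and blue symbols interleave.

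DNA replication genes had slightly lower values in Cldn2KO. Of 38 genes, 37 had a log2 fold change below 0, the median was -0.43, 0 were called and 6 were lower in all 3 Cldn2KO libraries (background 6.38%). Gmnn, the licensing inhibitor geminin, stood at 38.5, 27.5 and 35 CPM in WT and at 24.8, 24.2 and 23.9 CPM in Cldn2KO (-0.47 ± 0.17, unadjusted p 0.0136). Orc6, of the origin recognition complex, stood at 24.3, 21.1 and 37.3 CPM in WT and at 21.1, 16.8 and 18.8 CPM in Cldn2KO (-0.54 ± 0.25), and the highest Cldn2KO value and the lowest WT value differed by less than the rounding. Pcna, the replication clamp, stood at 134, 112 and 191 CPM in WT and at 121, 82.2 and 103 CPM in Cldn2KO (-0.51 ± 0.21), with WT replicate 2 below Cldn2KO replicate 1. WT replicate 3 was highest for 30 and Cldn2KO replicate 2 lowest for 32 of the 38 genes, and the median was -0.23 without the former and -0.22 with the 4 libraries without Xist. Without WT replicate 2, 25 of the replication genes were separated low, and 19 without Cldn2KO replicate 1, against 13.1% and 12.5% of all genes. Of the mitosis genes, 29 lay below 0 and Cldn2KO replicate 2 was the lowest library for 29. They had 0 separated members with all libraries and 18 lower ones without WT replicate 2, against 13.1% of all genes. Their median was -0.25 over 30 genes, was -0.08 with the 4 libraries without Xist and ranged from -0.44 to -0.09 without 1 library. Mki67, the proliferation antigen Ki-67, stood at 337, 222 and 262 CPM in WT and at 268, 208 and 244 CPM in Cldn2KO (-0.19 ± 0.45, 95% interval -1.15 to 0.78).

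Cell death and DNA damage genes showed few differences. Of 30 p53 target and DNA damage genes, 4 were lower in all 3 Cldn2KO libraries (Fas, Eda2r, Atr and Chek1) and 1 was higher (Zmat3), against 6.38% of all genes lower and 4.92% higher, with a median of -0.05. Without WT replicate 1, 6 were separated low and 1 high, against 9.79% and 8.55% of all genes. Zmat3, an RNA-binding p53 target, stood at 19.2, 23.2 and 22.1 CPM in WT and at 24.3, 26 and 31.4 CPM in Cldn2KO (0.34 ± 0.16). Cdkn1a, the cell cycle inhibitor p21, stood at 106, 130.4 and 133 CPM in WT and at 228, 123 and 153 CPM in Cldn2KO (0.45 ± 0.21), with Cldn2KO replicate 1 the highest of the 6. Of 31 apoptosis regulators, 4 were separated low (Bcl2a1b, Birc2, Birc3 and Casp2) and 2 high (Mcl1 and Bcl2l2), against 6.38% of all genes lower and 4.92% higher. Without WT replicate 2, 8 were separated low and 3 high, against 13.1% and 11.5% of all genes. Birc2, the ubiquitin ligase cIAP1 that restrains TNF-induced death, stood at 76.2, 61.4 and 64.1 CPM in WT and at 48, 51.3 and 52.8 CPM in Cldn2KO (-0.41 ± 0.16). Birc3, its relative cIAP2, stood at 136, 162 and 126 CPM in WT and at 100.3, 106 and 109 CPM in Cldn2KO. Mcl1, a survival member of the Bcl2 family, stood at 403, 408 and 372 CPM in WT and at 453, 474 and 475 CPM in Cldn2KO. In the necroptosis and TNF receptor list, 3 of 23 genes were separated low (Tnfsf10, Fasl and Fas) and 2 high (Sharpin and Ticam1), beside the same shares of all genes (6.38% and 4.92%). Without WT replicate 2, 6 of these genes were separated low and 2 high, against 13.1% and 11.5% of all genes. Ticam1, the adaptor TRIF, stood at 23.9, 21.1 and 19.8 CPM in WT and at 29.8, 27.6 and 25.5 CPM in Cldn2KO (0.36 ± 0.14). The necroptosis kinase Ripk3 overlapped at 24.8, 26.4 and 65.5 CPM in WT and 38.7, 24.4 and 34.2 CPM in Cldn2KO, as did its substrate Mlkl at 33.3, 27 and 35.4 and 28.4, 27.2 and 29 CPM.

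Of the 27 tested genes beside Cldn2 that the study discusses, on these or other samples of the series, a choice that makes the count no independent evidence, 0 were called and 1 had separated groups, against 4.92% of all genes higher and 6.38% lower. That gene was Vil1, the brush border protein villin, at 442, 493 and 325 CPM in WT and 617, 555 and 551 CPM in Cldn2KO (0.45 ± 0.22, 95% interval -0.02 to 0.92). Il6 did not pass the filter on low counts. Birc5, which encodes Survivin, stood at 50.7, 34.1 and 46.6 CPM in WT and at 46.8, 28.1 and 35.8 CPM in Cldn2KO (95% interval of the log2 fold change -1.30 to 0.81). Bcl2 stood at 12.6, 10.5 and 16.9 CPM in WT and at 14, 11.8 and 16 CPM in Cldn2KO (95% interval -0.46 to 0.58), and Myc at 26.4, 30.6 and 41 and 34.3, 27.7 and 30.2 CPM. Ly6a, a marker of repairing epithelium, stood at 745, 629 and 1422 CPM in WT and at 694, 574 and 671 CPM in Cldn2KO.

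Epithelial genes had slightly higher values in Cldn2KO. Of 18 general epithelial genes, 5 were higher in all 3 Cldn2KO libraries (background 4.92%), namely Krt19, Krt20, Vil1, Cldn3 and Gpa33, and the median was 0.21. Without Cldn2KO replicate 2 the number was 10, against 8.65% of all genes. Krt19, a keratin of simple epithelium, stood at 2223, 2249 and 1576 CPM in WT and at 3478, 2557 and 2378 CPM in Cldn2KO (0.48 ± 0.26). Epcam, the pan-epithelial adhesion protein, overlapped at 1929.6, 1911 and 1821 CPM in WT and 2304, 1865 and 1983 CPM in Cldn2KO, and WT replicate 3 was the lowest library for 11 of the 18 genes. Of 13 claudins tested of 20 listed, Cldn2 was called and Cldn3, a sealing claudin, was separated high at 206, 237 and 219 CPM in WT and 325, 241 and 269 CPM in Cldn2KO (0.34 ± 0.25). The 7 other listed claudins did not pass the filter. Cldn7 overlapped at 464, 453 and 487 CPM in WT and 643, 433 and 543 CPM in Cldn2KO, as did Cldn15, another cation channel claudin of the gut, at 71.3, 52.1 and 22.7 and 53.6, 55.4 and 39.4 CPM. Cldn4 ordered the libraries as the Wnt targets did, at 15.8, 97.8 and 413 CPM in WT and 175, 46.1 and 153 CPM in Cldn2KO. Of 22 plaque and adhesion genes, 3 were separated high (background 4.92%) and 0 low. Without Cldn2KO replicate 2, 10 were separated high, against 8.65% of all genes. Cgn, the plaque protein cingulin, stood at 109, 131 and 104 CPM in WT and at 139.5, 153 and 156 CPM in Cldn2KO (0.39 ± 0.14).

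Of 30 ion and water transport genes, 4 were separated high (Scnn1a, Clca4a, Atp12a and Kcnn4) and 1 low (Trpv6), against 4.92% and 6.38% of all genes. WT replicate 3 was the lowest library for 22 of them, and without it 4 were separated high and 5 low, against 10.3% and 12.1% of all genes, while the median went from 0.23 to -0.03. Scnn1a, a subunit of the epithelial sodium channel ENaC, stood at 59, 76.5 and 39 CPM in WT and at 93.9, 101 and 92.3 CPM in Cldn2KO (0.72 ± 0.44). Kcnn4, a basolateral potassium channel, stood at 39.5, 38.1 and 33.9 CPM in WT and at 54.1, 52.5 and 52 CPM in Cldn2KO. Slc26a3, the apical chloride-bicarbonate exchanger of colonocytes, overlapped at 531, 517 and 70.8 CPM in WT and 377, 892 and 219 CPM in Cldn2KO. No goblet cell gene of 14 was separated with all libraries, and the median was 0.07. Without WT replicate 3, 6 were separated low, against 12.1% of all genes, and the median was -0.18. Muc2, the secreted mucin, stood at 2120.0, 1924 and 875 CPM in WT and at 1500.4, 1285 and 1658 CPM in Cldn2KO.

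Smooth muscle and enteric nervous system genes had higher values in Cldn2KO, and how many separated the groups depended on WT replicate 2. All 17 smooth muscle genes had a log2 fold change above 0, with a median of 1.05 and 9 at an unadjusted p under 0.05 (background 3.32%), and 1 was separated (background 4.92%). That median was 0.60 without Cldn2KO replicate 2, 0.70 without WT replicate 3 and 1.80 without WT replicate 2. Without WT replicate 2, 13 smooth muscle genes and 10 neuronal and glial genes were separated high, against 11.5% of all genes. Acta2, smooth muscle actin, stood at 178, 331 and 65.1 CPM in WT and at 372, 775 and 295 CPM in Cldn2KO (1.33 ± 0.47). Lmod1, an actin nucleator of smooth muscle, stood at 13, 20.5 and 3.03 CPM in WT and at 27.1, 53.5 and 21.9 CPM in Cldn2KO (1.49 ± 0.50), and was the separated gene. WT replicate 3 was lowest and Cldn2KO replicate 2 highest for nearly the whole list, and the summed level of the 17 genes was 2649, 4518 and 1221 CPM in WT and 4169, 8553.3 and 3764 CPM in Cldn2KO. Of 16 neuronal and glial genes, 16 were above 0 with a median of 0.99 that ranged from 0.52 without Cldn2KO replicate 2 to 1.47 without WT replicate 2. Elavl3 and Gfap were separated (background 4.92%), at 0.339, 0.657 and 0.189 CPM in WT and 0.713, 1.59 and 1.2 CPM in Cldn2KO for the former (1.55 ± 0.45). With the 4 libraries without Xist the medians were 0.54 and 0.35. Collagen and fibroblast genes had a median of 0.42 with no separated gene among 19, and 6 were separated high without WT replicate 2, against 11.5% of all genes. Their median turned to -0.11 with the 4 libraries without Xist. Of 12 posterior Hox genes, which follow the position along the colon, 2 were separated high (background 4.92%), with a median of 0.17 that was -0.05 with the 4 libraries without Xist. Without Cldn2KO replicate 1, 5 of the Hox genes were separated high, against 11.99% of all genes. Hoxb13, of the most distal colon, stood at 285, 267 and 198 CPM in WT and at 345, 392 and 312 CPM in Cldn2KO.

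The lists not described above had no gene called by edgeR. The medians were -0.57 for antimicrobial proteins and lectins, 0.28 for absorptive colonocytes, -0.05 for enteroendocrine cells, 0.10 for tuft cells, 0.31 for endothelium, -0.39 for mast cells and 0.16 for stress and tissue handling. Of these, only absorptive colonocyte genes had separated groups, with 3 of 16 higher (background 4.92%) and 0 lower in Cldn2KO. With the 4 libraries without Xist, the medians were -0.33 for endothelium, 0.44 for mast cells and -0.12 for antimicrobial proteins. The antimicrobial median turned to 0.34 and the colonocyte median to -0.06 without WT replicate 3. Leaving out 1 library gave medians of -0.35 to 0.44 for enteroendocrine cells, -0.10 to 0.07 for tuft cells and -0.21 to 0.51 for endothelium. The ranges were -1.55 to 0.51 for mast cells and -0.04 to 0.35 for stress and tissue handling. Without WT replicate 3, 4 stress and tissue handling genes were separated high, against 10.3% of all genes.

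**Figure D5:**
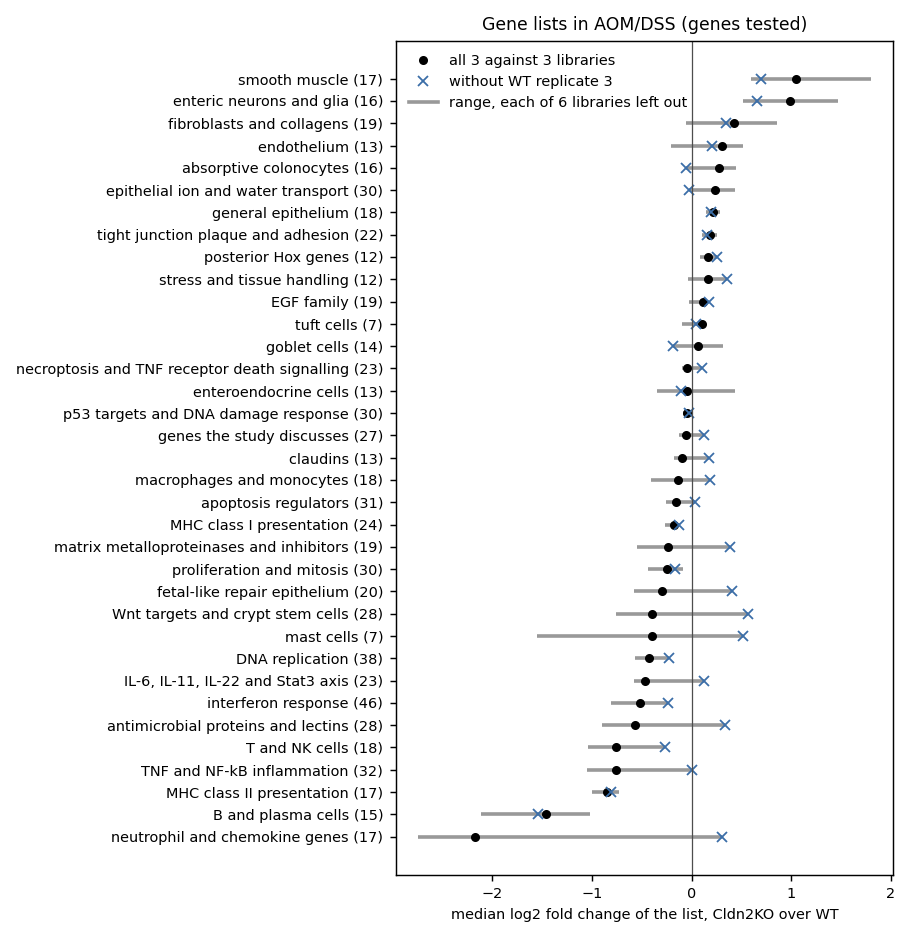
Median log2 fold change, Cldn2KO over WT, of each gene list except the sex-linked list and the 3 added lists, with the number of genes tested in brackets. Points are the values with all 6 libraries, gray lines the range when each library is left out in turn, and crosses the value without WT replicate 3, which moves the neutrophil list from -2.18 to 0.30 and the class II list only from -0.85 to -0.81.

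Finally, the genotype difference in AOM/DSS was set against that in untreated colon and in recovery, which share no library with it. Untreated WT replicate 2 stood apart from its group. In untreated WT colon the summed posterior Hox genes were at 884, 228 and 879 CPM, and absorptive colonocyte genes at 10205, 75861 and 9433 CPM. In recovery the Hox sums were 232 to 335 CPM, against 618 to 832 CPM in AOM/DSS. The part of the position along the colon in these comparisons was not tested. In untreated colon 199 genes (1.17%) and in recovery 165 genes (0.974%) were called between genotypes, against 1 gene in AOM/DSS. The test of the difference itself called 2 genes against untreated colon (0.0118%) and 0 against recovery by edgeR, where 732 genes had an unadjusted p under 0.05. DESeq2 called 87 (0.515%) and 12 (0.0822%) genes, and limma-voom 288 and 0. The edgeR calls against untreated colon were Ddah1 and Ighv5-16. Ddah1 (chr3:145758675-145894277 in GRCm38), which degrades the endogenous inhibitor of nitric oxide synthase ADMA, stood at 71.2, 52.7 and 72.5 CPM in WT and at 15.9, 10.2 and 14.9 CPM in Cldn2KO untreated colon. In AOM/DSS it stood at 50.7, 61.2 and 58.9 CPM in WT and at 63.4, 44.2 and 60.1 CPM in Cldn2KO, so that the groups overlapped. The genotype effect was 2.24 ± 0.30 (SE) higher on the log2 scale in AOM/DSS (edgeR adjusted p 0.0198, 6.96e-08 to 0.132 over 26 alternatives, of which 17 called it).

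The class II genes were then set beside their values in the other colons. H2-Aa stood at 1290.3, 1435 and 1629 CPM in WT and at 44.5, 16.8 and 194 CPM in Cldn2KO untreated colon, and at 265, 588 and 428 CPM and 9.64, 8.44 and 13.8 CPM in recovery. The log2 fold changes of H2-Aa were -4.09 ± 0.67 in untreated colon (edgeR adjusted p 0.00713), -5.33 ± 0.71 in recovery (adjusted p 0.00474) and -1.12 in AOM/DSS. WT levels were thus lower in AOM/DSS than in untreated colon, whereas Cldn2KO levels were within the wide range of untreated colon. Of the 17 class II genes, 8 were called between genotypes in untreated colon, 7 in recovery and 0 in AOM/DSS by edgeR. Of all genes tested, the called shares were 1.17%, 0.974% and 0.0059%. DESeq2 on the 6 AOM/DSS libraries called 1 class II gene, H2-Eb1, against 0.1% of all genes. The difference of the effects against untreated colon was called for 0 of the 17 by edgeR, for 6 by DESeq2 and for 8 by limma-voom. Over all genes tested these tools called 0.0118%, 0.515% and 288 of 16937 genes. Against recovery the difference was called for 0, 5 and 0 of the 17. There edgeR and limma-voom called 0 of all genes and DESeq2 0.0822%. H2-Eb1 had an interaction of 2.98 ± 0.72 against untreated colon, with an edgeR adjusted p of 0.338 and a range of 0.00182 to 0.893. One Cldn2KO library of untreated colon, replicate 3, was higher in these genes than the other 2, and without it edgeR called 11 genes against untreated colon, 7 of them of the class II list.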

How the data were processed

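RNA-seq was performed on colon of WT and Cldn2KO mice in 18 libraries, each sequenced on 2 lanes. The authors deposited raw counts of reads per gene, named by Ensembl gene ID. The study's methods name TopHat2 and featureCounts from Subread, while the submitters' processing notes name HISAT2, featureCounts and GRCm38. Strand setting, treatment of reads with several alignments and annotation release were not given in the sources used here, so overlapping, antisense and near-identical genes, such as class II and immunoglobulin genes, are uncertain where reads could be shared. Of 47729 gene IDs, 47310 matched GENCODE M21, which gave symbols and positions, and 419 did not.

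Counts of both lanes were summed per library. The labels give no batch, and the lanes of a library were not treated as replicates. Genes were kept by filterByExpr over the 6 groups, which left 16937. edgeR 4.0.16 in R 4.3.3 was run with TMM factors and the robust quasi-likelihood test on all 18 libraries, with a mean per group. Contrasts were Cldn2KO over WT in AOM/DSS, and its difference from the same contrast in untreated colon and in recovery. p-values were adjusted by Benjamini-Hochberg over all genes tested and called under 0.05. CPM are TMM-scaled, and log2 fold changes carry the SE of the fit. With 3 against 3 libraries an exact permutation test cannot go below 0.1, so none was used. The test was run on simulated data before use. These had less spread than the common dispersion of 0.0993 in the real libraries and no outlying library, so that run cannot show how the test performs here.

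Alternatives were RLE and upper-quartile scaling, testing of every gene or of those reaching 1 CPM in 3 or more libraries, DESeq2 1.42.0, limma-voom 3.58.1 with sample weights, sex as a covariate, only the AOM/DSS libraries without Xist, only the 6 AOM/DSS libraries, and leaving out each library. DESeq2 on the 6 libraries and the separated genes without a library were chosen after seeing the data. Named genes were Cldn2, the genes called by any tool, 10 genes per direction with a mean of at least 1 CPM, separated groups and the smallest unadjusted p, up to 4 members with the smallest p and the most abundant member of each of 36 gene lists, the genes the study discusses and the genes called in an interaction. Further list members and other genes named in the text, and 3 added lists of leukocyte, follicle and M cell, and clock genes, were chosen after their values were seen. The members and lists were chosen with earlier results of these data known. Promoter sequences were taken from RefSeq on GRCm38.p6, and figures were drawn with matplotlib 3.10.9. Values of some genes are not reported here.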

Additional observations from a re-analysis of the deposited data

Results flagged for a closer look

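A pair of genes had a genotype effect in AOM/DSS that differed from that in untreated colon by the test of the difference itself (edgeR). For Ddah1 the effect was 2.24 higher on the log2 scale in AOM/DSS, with an adjusted p of 0.0198 that ranged from 6.96e-08 to 0.132 over 26 alternatives. All 3 Cldn2KO libraries were below all 3 WT libraries in untreated colon, and the groups overlapped in AOM/DSS.

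For Ighv5-16, an immunoglobulin heavy chain variable segment, the effect was 10.48 higher on the log2 scale (adjusted p 0.0198, 0.000105 to 0.414 over 26 alternatives, of which 13 called it), a size that depends on the prior count. In untreated colon it stood at 1.26, 1.44 and 1.43 CPM in WT and at 0.0493, 0 and 0.0538 CPM in Cldn2KO. In AOM/DSS the WT libraries held 0 reads and the Cldn2KO libraries 20 reads together, which is at least 5.37-fold higher against 3 reads over the WT group. Variable segments are used by single B cell clones, and reads of near-identical segments could be shared.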

How the results depend on the processing

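Cldn2 was called in all 28 alternatives. DESeq2 called 4 genes in AOM/DSS and DESeq2 on the 6 libraries 15, and the count was 1 to 2 when a library was left out, with 2 without WT replicate 1 (Cldn2 and Ighv1-5) or WT replicate 2 (Cldn2 and Socs3). For the difference from untreated colon, the count of 2 became 4 with no filter, 87 with DESeq2, 288 with limma-voom and 0 with the AOM/DSS libraries without Xist, and it ranged from 0 to 11 without 1 library, with 11 without untreated Cldn2KO replicate 3, 6 without WT AOM/DSS replicate 3 and 5 without untreated WT replicate 2. For the difference from recovery, DESeq2 called 12 genes and the fit without untreated Cldn2KO replicate 3 called 4 (H2-Eb1, H2-Aa, H2-DMb1 and Wdfy1), and the other alternatives called 0. Of 72 genes with a fold change, 63 kept their direction in every alternative. The others turned positive with limma-voom: S100a8 0.19, Reg3b 0.86, Notum 0.54, Nkd1 0.96, Wif1 1.15, Mmp7 0.88 and Plet1 0.38, and, in libraries without Xist, Nkd1 0.022 and Ddah1 0.17. Leaving out 1 library gave -3.09 to 0.18 for Il1b, -4.24 to 0.83 for S100a8, -8.48 to 0.48 for Reg3b, -1.18 to 1.16 for Notum, -1.21 to 1.38 for Nkd1, -1.12 to 2.11 for Wif1, -1.87 to 1.93 for Mmp7, -0.14 to 0.13 for Ddah1 and -1.89 to 0.75 for Plet1. All but Ddah1 turned positive without WT replicate 3. Of 39 list medians, 13 kept 1 direction throughout, while 16 changed sign without WT replicate 3 and 12 with limma-voom. The cause was not tested. No paired analysis was possible because no label ties a Cldn2KO library to a WT library of AOM/DSS, and equal replicate numbers are only names.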

Other observations

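The circadian clock list was put together after Per2 had been seen. Of 19 clock genes, 3 were higher in all 3 Cldn2KO libraries (background 4.92%) and 0 lower, 0 were called, and the median log2 fold change was 0.25. The median ranged from 0.22 to 0.46 when each library was left out. Without WT replicate 2, 7 were separated high, against 11.5% of all genes. The hour of collection was not given in the sources used here, and its part in the values was not tested.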
